A study of Homo sapiens with 4 samples.

Results

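The genes described here are 10 genes of the mucus layer: the gel-forming mucins MUC2, MUC5AC and MUC5B, the membrane mucins MUC1 and MUC13, the trefoil factors TFF1, TFF2 and TFF3, and the goblet cell regulators AGR2 and SPDEF. They were chosen by gene symbol, through the Ensembl identifier of each symbol, and all 10 were found among the 60658 gene rows listed for each library. TMEM161A encodes a membrane protein that the series links to growth of colorectal tumours, and RNA sequencing compared cells given a small interfering RNA (siRNA) against it with cells given a negative control siRNA. Both lines used, HT29 and LIM1215, are established lines from human colorectal cancers. The 4 groups were HT29 with control siRNA, HT29 with the TMEM161A siRNA that the titles call si2, LIM1215 with control siRNA and LIM1215 with si2, each with 1 library. All groups thus carried an siRNA, no untransfected cells were among the samples, and the labels give no siRNA dose or time of harvest. With 1 library a group there was no spread between replicates and no test was made between groups, and the other cell line was the only repeat of the knockdown.

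Mucins are long glycoproteins whose repeats of serine and threonine carry dense O-linked sugars. Gel-forming mucins are folded and disulfide-linked in the endoplasmic reticulum (ER), packed into granules and secreted as the mucus gel, while membrane mucins stay anchored at the apical cell surface. In normal colon, goblet cells make MUC2 and TFF3, whereas MUC5AC and TFF1 are products of the gastric surface that many colorectal tumours also make. AGR2 is an ER protein of the disulfide isomerase family that intestinal mucus production needs, and SPDEF is a transcription factor that drives goblet cell maturation.

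The files give FPKM, the fragments per kilobase of gene scaled to the library's total, and levels can be compared between genes because they are divided by length. Steps in the low values put the depth at an estimated 18100000 to 21540000 fragments a library. The targeted gene followed the labels, since the FPKM of TMEM161A with si2 was 10.9% of control in HT29 and 19.4% in LIM1215. The 5 general epithelial markers EPCAM, KRT8, KRT18, KRT19 and CDH1 were present in every library, with a summed FPKM of 3131 and 3579 in HT29 and 7406 and 9073 in LIM1215. Of 7 blood and stroma markers, PTPRC, CD3E and HBB were listed at 0 throughout and COL3A1 and PECAM1 were under an FPKM of 1. CD68, a lysosomal protein best known from macrophages, was at 6.21 and 9.82 in HT29 and 58.1 and 72.2 in LIM1215, and the collagen gene COL1A1 at 17.6 and 15.95 and at 4.83 and 8.56.

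The summed enterocyte and goblet cell markers separated the lines more than the siRNA did. The enteroendocrine and tuft sums were closer between the controls than between the LIM1215 libraries. The enteroendocrine sum was 14.6 with control siRNA and 18.5 with si2 in HT29, and 16.8 and 31.0 in LIM1215. The tuft sum was 3.33 and 3.53 in HT29 and 4.15 and 5.88 in LIM1215. Of 9 enterocyte markers, 7 were under an FPKM of 1 in both HT29 libraries, and 1 in both LIM1215 libraries. The exceptions in HT29 were the homeobox gene CDX2 and CA2. CDX2 was at 8.29 and 8.04 in HT29, against 96.8 and 150 in LIM1215. CA2 was higher in HT29, at 26.4 and 18.4 against 17.8 and 9.65. VIL1, which encodes the brush border protein villin, stood at 0.0397 with control siRNA and 0 with si2 in HT29, against 192 and 261.2 in LIM1215. The intestinal cadherin CDH17 was at 0.243 and 0 in HT29 and at 165 and 137 in LIM1215, and the homeobox gene CDX1 was listed at 0 in both HT29 libraries. Of 9 goblet cell markers, 8 were under an FPKM of 1 in both HT29 libraries, with FCGBP (1.60 and 3.48) as the exception. HT29 is generally described as an intestinal line that expresses villin and from which mucus-secreting sublines were derived, so both libraries labelled HT29 go against that description. The names used below follow the labels, and the identity of the cells was not tested. The comparison of the LIM1215 libraries uses the HT29 libraries nowhere but in the filter on the mean FPKM. In LIM1215 the goblet cell markers were not complete either: TFF3 and SPINK4 were above an FPKM of 9 in both libraries, FCGBP was at 0.939 in the control and just over 1 in the knockdown, and MUC2, ATOH1, SPDEF and ITLN1 were under 1 and ZG16 and CLCA1 at 0.

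**Figure D1:**
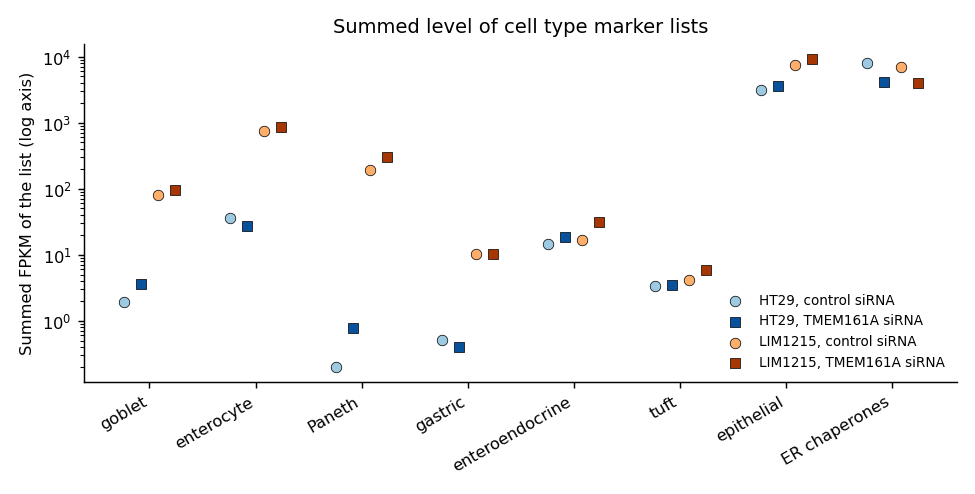
Summed FPKM (log axis) of 7 cell type marker lists and of the ER chaperones, 1 point per library, with circles for control and squares for TMEM161A siRNA. The enterocyte sum was 35.3 and 27.3 in HT29 and 753 and 846 in LIM1215, and the goblet sum 1.92 and 3.60 against 79.3 and 95.1, while the ER chaperone sum was lower with the TMEM161A siRNA in both lines.

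Upstream sequences are shown for AGR2, MUC13 and MUC2, from the RefSeq promoter table (GRCh38.p14, 250 bases before the annotated start, 5′ to 3′ on the gene's strand), beside the ER chaperones HSPA5 and SDF2L1. The table held 5 of the 10 members, MUC1, MUC2, MUC13, AGR2 and SPDEF. Capitals mark matches on either strand to the ER stress elements ERSE (CCAAT and CCACG parted by 9 bases) and ERSE-II (ATTGG and CCACG parted by 1 base), the unfolded protein response element TGACGTGG, the CDX words TTTATTG and TTTATGG, the FOXA words TGTTTAC and TATTTAC, and the HNF4 word CAAAGTCCA. The AGR2 stretch is chr7:16805000-16805249 (minus strand), MUC13 chr3:124934752-124935001 (minus), MUC2 chr11:1074624-1074873 (plus), HSPA5 chr9:125241344-125241593 (minus) and SDF2L1 chr22:21642052-21642301 (plus). For AGR2 and MUC13 the RefSeq start lies inside the GENCODE gene given further on, whose longest transcripts begin upstream of it.
AGR2: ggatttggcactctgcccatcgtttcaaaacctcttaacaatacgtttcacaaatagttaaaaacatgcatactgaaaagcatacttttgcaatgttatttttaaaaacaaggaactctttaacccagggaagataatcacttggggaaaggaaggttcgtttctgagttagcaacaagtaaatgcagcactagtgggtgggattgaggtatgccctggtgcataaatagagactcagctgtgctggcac
MUC13: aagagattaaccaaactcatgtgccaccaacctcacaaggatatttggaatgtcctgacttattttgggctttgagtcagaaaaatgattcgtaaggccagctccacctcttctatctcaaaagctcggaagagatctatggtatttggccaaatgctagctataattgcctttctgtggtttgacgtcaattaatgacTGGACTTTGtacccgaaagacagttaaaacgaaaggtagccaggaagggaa
MUC2: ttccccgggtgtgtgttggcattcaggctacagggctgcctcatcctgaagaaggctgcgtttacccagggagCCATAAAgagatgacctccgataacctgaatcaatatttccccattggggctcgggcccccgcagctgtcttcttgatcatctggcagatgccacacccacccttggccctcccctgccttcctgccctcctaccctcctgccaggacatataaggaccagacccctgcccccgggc
HSPA5: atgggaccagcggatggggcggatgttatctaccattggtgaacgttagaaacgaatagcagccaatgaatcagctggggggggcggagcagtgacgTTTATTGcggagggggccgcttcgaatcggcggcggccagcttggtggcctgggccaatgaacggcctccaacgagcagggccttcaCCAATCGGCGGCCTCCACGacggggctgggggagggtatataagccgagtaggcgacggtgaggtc
SDF2L1: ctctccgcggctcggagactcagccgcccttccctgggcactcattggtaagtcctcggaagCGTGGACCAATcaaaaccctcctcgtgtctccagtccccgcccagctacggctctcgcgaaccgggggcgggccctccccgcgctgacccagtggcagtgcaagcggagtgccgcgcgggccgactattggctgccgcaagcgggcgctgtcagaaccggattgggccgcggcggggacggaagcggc
ERSE is in 0.074% and ERSE-II in 0.0513% of the 35116 promoters of the table. None of the 5 members with a promoter held either element, against 9 of the 19 ER chaperones with at least 1 promoter there, HSPA5 and SDF2L1 among them. With shares this low over all promoters, the lack of a match in 5 genes sets the members little apart. The AGR2 stretch held none of the 8 words, and HSPA5 also held TTTATTG (in 3.66%). MUC2 held a reverse TTTATGG (in 2.3% of promoters) and MUC13 a reverse HNF4 word (in 0.325%). Of the members not shown, SPDEF held a reverse TATTTAC (in 2.39%), and MUC1 held none of the 8 words at either of its annotated starts. Such matches describe letters in this window and are no evidence that a factor binds there.

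Where the genes lie was taken from GENCODE release 44 on GRCh38, the build named in the submitters' processing notes. The gel-forming mucins form a cluster on the plus strand of chromosome 11, with MUC2 (ENSG00000198788) from 1074875 to 1110511, MUC5AC (ENSG00000215182) from 1157953 to 1201138 and MUC5B (ENSG00000117983) from 1223066 to 1262172. The trefoil factors form another on the minus strand of chromosome 21, with TFF3 (ENSG00000160180) from 42311667 to 42315409, TFF2 (ENSG00000160181) from 42346357 to 42350997 and TFF1 (ENSG00000160182) from 42362282 to 42366535. MUC1 (ENSG00000185499) is on chromosome 1 from 155185824 to 155192916, MUC13 (ENSG00000173702) on chromosome 3 from 124905442 to 124953819, AGR2 (ENSG00000106541) on chromosome 7 from 16791811 to 16833433 and SPDEF (ENSG00000124664) on chromosome 6 from 34537802 to 34556333, all on the minus strand. MUC5B overlaps the antisense gene MUC5B-AS1, which was listed at 0 in 3 libraries and at 0.531 in the LIM1215 knockdown, and whether counting used the strand is not given in the sources used here. The long repeats of mucins can also hold fragments that map to several places, whose treatment is not given either.

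In the control libraries, 6 of the 10 genes had an FPKM of at least 1 in LIM1215 and 1 did in HT29, where 6 were listed at 0. AGR2 had an FPKM of 954 in LIM1215, rank 126 of 19580 protein-coding genes, and was listed at 0 in HT29. MUC13, a membrane mucin of the enterocyte surface, was at 304 and at 0, and TFF3, the intestinal trefoil peptide that protects and repairs the mucosa, at 53.0 and at 0. Zeros of this kind were not seen in 15 housekeeping genes, whose lowest FPKM in any library was 11.7, and 3 fragments of AGR2 would have given 0.0945 in the HT29 control. The highest member in HT29 was MUC1, a widely expressed epithelial membrane mucin.

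MUC1 stood at 3.77 FPKM in HT29 control cells against 17.9 in LIM1215 control cells, 4.75-fold higher in LIM1215 (95% counting interval 3.90 to 5.79). The gel-forming mucins were low per length even in LIM1215, with MUC5AC at 4.41, MUC5B at 1.27 and MUC2 at 0.491. In HT29 MUC5AC was listed at 0, MUC5B was at 0.0159 and MUC2 at 0.0604. Because MUC5AC and MUC5B transcripts are long (17448 and 17911 bases in the canonical form), these LIM1215 levels rest on an estimated 1376 and 407 fragments. SPDEF was at 0.0282 in HT29 and 0.325 in LIM1215, or about 1 and 10.1 fragments. TFF1 was listed at 0 in HT29 and at 0.158 in LIM1215, a level of about 0.83 fragments, and TFF2, a gastric trefoil peptide, was listed at 0 in all 4 libraries.

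On the scale used for counts, log2(FPKM + 1), 6 of the 10 members (MUC1, MUC5AC, MUC5B, MUC13, TFF3 and AGR2) were at least 2-fold higher in the LIM1215 control and 0 were lower. Of all 60658 rows, 3.41% were that much higher and 2.15% lower. Averaged across the 4 libraries, 5 of the 10 members reached an FPKM of 1, and 4 of those (MUC5AC, MUC13, TFF3 and AGR2) reached it through LIM1215 alone, so that their difference between the lines was built into that filter. Above it, 12% of 14803 genes were higher in LIM1215 and 7.42% lower.

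**Figure D2:**
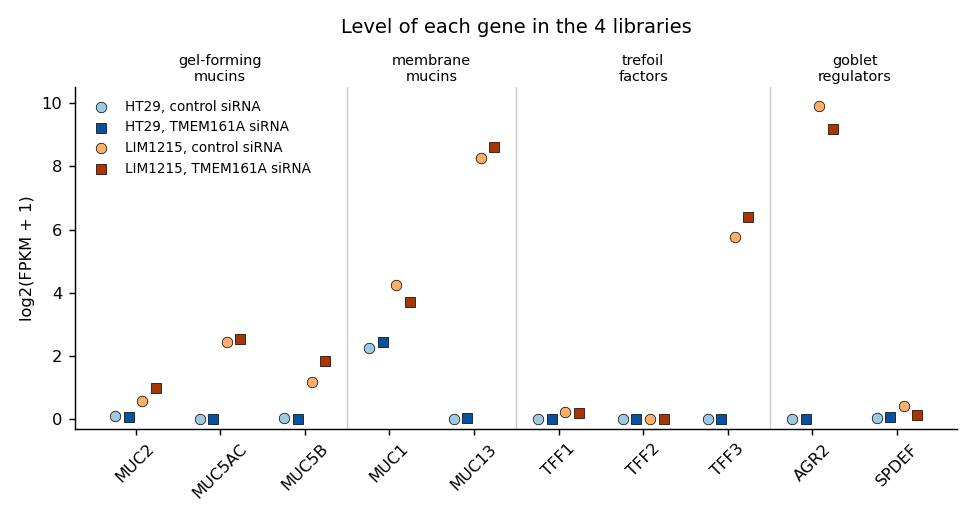
Level of each of the 10 genes in log2(FPKM + 1), 1 point per library, with circles for control and squares for TMEM161A siRNA. AGR2, MUC13 and TFF3 are at or near 0 in both HT29 libraries and at 954, 304 and 53.0 FPKM in the LIM1215 control, and MUC1 is the only member above an FPKM of 1 in HT29.

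The knockdown in LIM1215 moved the members in different directions. None of the 10 passed the 2-fold threshold on log2(FPKM + 1), which 1.27% of all rows passed in either direction. Counting intervals excluded equality for 7 of the 8 members with at least 3 estimated fragments in both libraries, but they did so for 54.6% of the 17705 rows at that depth, so the count sets the members little apart. Such an interval, exact (Clopper-Pearson) and from the estimated fragments, covers counting error only and says nothing of the variation between cultures. Fewer cells making a transcript and less transcript per cell cannot be told apart in these bulk libraries. The marker lists differed as well: the enterocyte sum was 753 and 846, the goblet sum 79.3 and 95.1 and the Paneth sum 194 and 304. The gastric sum was 10.2 and 10.3, with GKN1 and GKN2 at 0. Few genes carried most of these sums, PLA2G2A (193 and 299.8) the Paneth, TFF3 the goblet, and MUC5AC and MUC6 the gastric sum. Within the lists FABP1 was at 49.96% of control, CDH17 at 82.9% and SPINK4 at 40.1%. Their part in the results below was not tested.

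Among the regulators, AGR2 had an FPKM of 954 with control siRNA and 585 with si2, or 61.3% of control (interval 60.1% to 62.5%), a log2 ratio of -0.71. Of the 14803 genes compared, 4.11% had a log2 ratio this low or lower. AGR2 stayed the highest of the 10 members, and made up 71.5% of their summed FPKM with control siRNA and 54.4% with si2. SPDEF was at 0.325 and 0.0888, about 10.1 and 3.08 fragments, and its interval of 4.74% to 104% of control did not exclude equality.

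The membrane mucins went opposite ways. MUC13 was at 304 and 386, or 127% of control (124% to 130%), with a log2 ratio of 0.34. MUC1 was at 17.9 and 12.0, or 67.2% of control (58.8% to 76.7%), with a log2 ratio of -0.54. A ratio as low as that of MUC1 was found in 7.24% of genes, and one as high as that of MUC13 in 17.0%.

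Of the trefoil factors only TFF3 had a level to compare. It was at 53.0 with control siRNA and 83.1 with si2, or 157% of control (142% to 173%), with a log2 ratio of 0.64, and 5.38% of genes had one as high. TFF1 was at 0.158 and 0.141, about 0.83 fragments in each library, and TFF2 at 0.

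The gel-forming mucins were all higher with si2, by unequal amounts. MUC5B, best known from airway mucus and saliva, was at 1.27 and 2.55, a ratio of 2.01 in FPKM (interval 1.78 to 2.26) that rests on an estimated 407 and 915 fragments. Its log2 ratio was 0.65, short of the threshold because the pseudocount of 1 weighs heavily at such levels. MUC2 was at 0.491 and 0.978, a ratio of 1.99 (1.32 to 3.03). Its fragments, 35.6 and 79.5, were estimated with a canonical transcript of 4209 bases, much shorter than the MUC5AC and MUC5B models, so that its interval may be too wide. MUC5AC was at 4.41 and 4.83, or 110% of control (102% to 118%), with a log2 ratio of 0.11. The neighbours in the cluster thus differed, with an interval for MUC5AC that ended below the start of that for MUC5B.

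**Figure D3:**
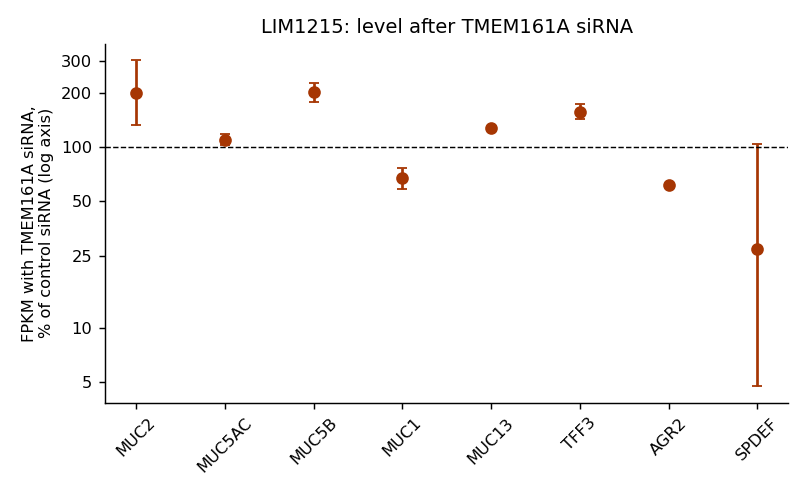
FPKM in the LIM1215 knockdown as a percentage of the LIM1215 control (log axis) for the 8 members with at least 3 estimated fragments in both libraries, with 95% counting intervals as bars, which for AGR2 and MUC13 are shorter than the point. MUC5B, MUC2, TFF3, MUC13 and MUC5AC lie above the dashed line at 100%, AGR2 and MUC1 below it, and the SPDEF interval crosses it.

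Set against each other in LIM1215, the gel-forming members MUC2, MUC5AC and MUC5B summed to 6.17 FPKM with control siRNA and 8.36 with si2. The membrane members MUC1 and MUC13 summed to 322 and 398. The gel-forming members were 1.88% and 2.06% of the sum of both, so MUC1 and mainly MUC13 made up nearly all of it with either siRNA. Other mucins, among them MUC6, MUC3A and MUC20, are not in these sums, so the shares are not those of the whole classes. The median log2 ratio was 0.41 over the 3 gel-forming and -0.10 over the membrane mucins when no filter was applied, a difference of 0.50. With the filter on a mean FPKM of at least 1, MUC5AC alone stood for the gel-forming mucins and the difference was 0.21. With so few genes, and with MUC1 and MUC13 on either side of 0, these differences describe the genes and not the classes.

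In HT29 the same knockdown left little to compare. MUC1 was at 3.77 with control siRNA and 4.45 with si2, or 118% of control, and the interval of 92.6% to 150% did not exclude equality. MUC2 (0.0604 and 0.0410) and MUC5B (0.0159 and 0.00785) rested on fewer than 7 estimated fragments in each library. For MUC2 this estimate used the canonical transcript of 4209 bases and may be too low. MUC5AC was at 0 and 0.0107 and MUC13 at 0 and 0.0346, with 3.99 and 1.996 estimated fragments in the knockdown, and SPDEF was at 0.0282 and 0.0557, about 1.02 and 2.05. AGR2, TFF1, TFF2 and TFF3 were listed at 0 in both libraries. None of the 10 passed the 2-fold threshold, which 1.32% of all rows passed. By these estimates, with the limit given for MUC2, 9 of them rested on fewer than 7 fragments in each library. A decrease was then not detectable at this depth. All 9 were under an FPKM of 0.1 in both libraries, so none had come near the LIM1215 levels of AGR2, MUC13 or TFF3.

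The rest of the mucin family was read from the same libraries. MUC3A, a membrane mucin of the enterocyte surface, was the highest of 9 further membrane mucins, at 11.9 and 15.3 in HT29 and 44.7 and 54.8 in LIM1215. It was higher with si2 in both lines, at 129% of control (123% to 136%) in HT29 and 122% (119% to 126%) in LIM1215. MUC20 was at 2.95 and 2.89 in HT29 and at 21.2 and 36.0 in LIM1215, or 169% of control (156% to 184%) there. MUC12, singled out after its values were seen, was at 2.002 and 4.44 in LIM1215, a ratio of 2.22 (2.01 to 2.44). In HT29 it was at 0.230 and 0.0690, or 29.96% of control (18.1% to 47.8%), the opposite direction. None of the 3 further membrane mucins with a mean FPKM of at least 1 passed the 2-fold threshold in either line, where 1.85% of the 14803 genes compared passed upward and 1.95% downward in HT29, and 1.68% and 1.78% in LIM1215. Their median log2 ratios were -0.02 (HT29) and 0.73 (LIM1215), beside 0.04 and 0.02 over all genes compared. MUC6, a gel-forming mucin of gastric glands, was at 5.17 and 5.19 in LIM1215 and at 0.281 and 0.284 in HT29. MUC19, another secreted mucin singled out after its values were seen, had a mean FPKM of 0.914, under the filter. It was at 1.34 and 1.49 in HT29 and at 0.206 and 0.624 in LIM1215, a ratio of 3.03 (2.40 to 3.88) there. Between the controls it was lower in LIM1215, at 15.4% of HT29 (12.2% to 19.1%). MUC7 was listed at 0 throughout. The same repeats that limit the gel-forming mucins apply to MUC3A, MUC12 and MUC20.

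Of 22 other goblet cell genes, 14 had a mean FPKM of at least 1. In LIM1215, 0 passed the 2-fold threshold upward and 1 downward, 11 had a log2 ratio above 0, and the median was 0.35. In HT29, 0 passed in either direction and the median was -0.03. Of all genes compared, 1.68% passed upward and 1.78% downward in LIM1215, and 1.85% and 1.95% in HT29. The gene past the threshold was SPINK4, which encodes a protease inhibitor secreted by goblet cells, at 24.0 with control siRNA and 9.63 with si2 in LIM1215, or 40.1% of control (26.2% to 58.4%). It was at 0.235 and 0 in HT29. ELF3, an epithelial transcription factor and the most abundant gene of the list, was at 133 and 128 in HT29 and at 304 and 368 in LIM1215. KLF4, a factor needed for goblet cell differentiation in mouse colon, was at 32.5 and 54.1 in HT29 and at 23.9 and 32.0 in LIM1215, higher with si2 in both. ERN2, the ER stress sensor of mucus-secreting epithelium, singled out after its values were seen, was at 40.4 and 69.2 in LIM1215, or 171% of control (163% to 180%), and at 0.337 and 0.141 in HT29, or 41.7% (16.4% to 91.2%). Its widely expressed relative ERN1 went the other way in each line, at 7.18 and 4.75 in LIM1215 (66.1%) and 4.08 and 4.78 in HT29 (117%).

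Of 21 enzymes that build and extend mucin O-glycans, 19 had a mean FPKM of at least 1, and 1 passed the threshold downward in each line. Over all genes compared this share was 1.95% in HT29 and 1.78% in LIM1215, so 1 of 19 sets the list little apart. The medians were -0.05 in HT29 and 0.19 in LIM1215, and 10 of the 19 had a log2 ratio above 0 in LIM1215 and 9 in HT29. GALNT1, which adds the first sugar of an O-glycan, was the gene in HT29, at 45.9 and 20.8 (log2 ratio -1.11), and was at 59.0 and 31.3 in LIM1215 (-0.89), lower in both lines. ST6GALNAC2, a sialyltransferase, was the gene in LIM1215, at 5.49 and 1.48 (-1.39), against 2.33 and 2.14 in HT29 (-0.08). Highest in mean FPKM over the 4 libraries were the fucosyltransferase FUT3, at 81.5 and 97.1 in LIM1215 and 1.97 and 2.71 in HT29, and GALNT7, at 46.2 and 55.9 in LIM1215 and 32.9 and 46.5 in HT29. In the HT29 control GALNT1 was the highest of the 21.

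ER chaperones, already known from these libraries to be lower with si2, were placed beside the members because AGR2 works in the same compartment. Of 20 ER chaperones and folding enzymes, 10 passed the 2-fold threshold downward in HT29 and 8 in LIM1215, and 0 upward in either. Of all genes compared, 1.95% passed it downward in HT29 and 1.78% in LIM1215. The chaperone medians were -0.92 and -0.90, beside 0.04 and 0.02 over all genes compared. HSPA5, the main ER chaperone BiP, was at 1305 and 398 in HT29 and at 894 and 264 in LIM1215. HSP90B1 was at 40.1% and 46.5% of control, CALR at 49.1% and 57.1%, CANX at 78.6% and 78.2% and P4HB at 79.8% and 85.4%, in HT29 and LIM1215.

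AGR2 in LIM1215, at 61.3% of control, was less reduced than HSPA5, at 29.5%, SDF2L1, at 30.4%, HERPUD1, at 31.8%, CRELD2, at 33.8%, and MANF, at 38.9%. Other disulfide isomerases of the ER, chosen as its relatives after the values were seen, were at 62.1% (PDIA3), 67.0% (PDIA6), 74.1% (PDIA4), 84.0% (TXNDC5) and 85.4% (P4HB). The related ERP44 was at 67.7%, and ERP29 was not reduced, at 99.7% in LIM1215 and 123% in HT29. Of these, AGR2 was nearest to PDIA3, whose interval of 61.0% to 63.2% overlapped its own. Its gene neighbour and paralog AGR3 was at 7.12 and 6.43, or 90.3% of control (64.0% to 128%). Of 8 sensors and factors of the ER stress response, 3 passed the threshold downward in HT29 and 2 in LIM1215, with medians of -0.44 and -0.42. The share over all genes compared was 1.95% and 1.78%. DDIT3 was at 36.2% and 35.7% of control and CREB3L2 at 46.8% and 34.6%, while EIF2AK3 was at 46.2% and 51.5%, ATF4 at 96.0% and 89.5% and ATF6 at 113% and 149.6%. In the LIM1215 library where AGR2 was at 61.3% of control, MUC19 was thus at 303%, MUC5B at 201%, MUC2 at 199%, MUC5AC at 110% and MUC6 at 100.5%. None passed the threshold on log2(FPKM + 1), where the pseudocount of 1 weighs heavily at the levels of MUC19, MUC5B and MUC2. In HT29 the chaperone median was close to that in LIM1215, but AGR2, MUC2, MUC5AC and MUC5B had no level to compare. Of the other secreted mucins in HT29, MUC6 was at 101% of control (65.9% to 154%) and MUC19 at 111% (100.4% to 124%). Whether the changes are connected was not tested.

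**Figure D4:**
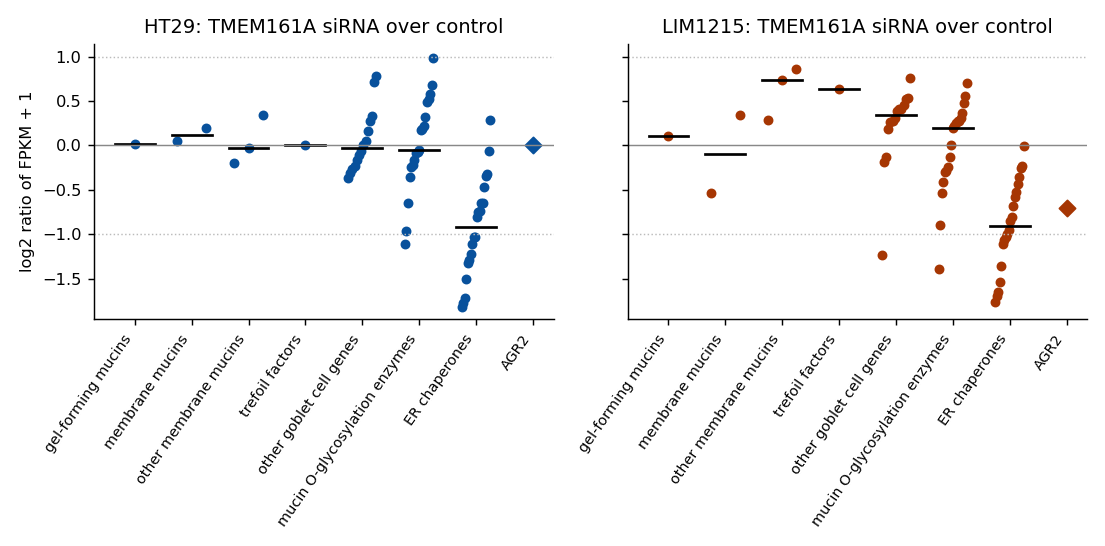
Log2 ratio of FPKM + 1, TMEM161A siRNA over control, in HT29 (left) and LIM1215 (right), for genes with a mean FPKM of at least 1, with 1 point per gene, a black bar at each list's median and dotted lines at the 2-fold threshold. ER chaperones have medians of -0.92 and -0.90, AGR2 is at -0.71 in LIM1215 and listed at 0 in both HT29 libraries, and the other lists have medians between -0.10 and 0.73.

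The protein-coding genes with the pattern most like the 3 most abundant members were ranked by the summed absolute difference over the 3 log2 ratios, among 8044 genes with a mean FPKM of at least 10 outside the Y chromosome, which was left out after the values were seen. Nearest to MUC13 were LGALS4 (0.87), VIL1 (0.92) and PLA2G2A (0.99), nearest to TFF3 were LRATD1 (0.10), PLBD1 (0.29) and BCAT1 (0.40), and nearest to AGR2 were PHGR1 (1.16), MUC13 (2.75) and S100P (3.08). All were at or under 1.23 in both HT29 libraries and above 50 in both LIM1215 libraries. PHGR1 was at 1225 and 1311 in LIM1215 and S100P at 478 and 557, so neither shared the lower level of AGR2 with si2. The likeness rests on 4 libraries and mostly on the difference between the lines.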

How the data were processed

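RNA was measured in 4 libraries, 1 for each combination of cell line and siRNA, grouped by sample title. The labels' protocols name the miRNeasy Micro kit for the RNA and the TruSeq Stranded mRNA kit for the libraries. The submitters' processing notes name HISAT2 2.1.0, SAMtools 1.20, Cuffdiff, Cufflinks 2.2.1 and the build GRCh38. Settings, annotation and strand use are not given in the sources used here. The authors deposited FPKM for 60658 Ensembl identifiers, so no count model was fitted.

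Symbols, positions and canonical lengths came from GENCODE release 44, which matched 56550 identifiers. Of 143 entries in 17 gene lists, 1 had no match. Levels were compared as log2 of FPKM with a pseudocount of 1 added. A gene was called changed at 2-fold, among 14803 genes with a mean FPKM of at least 1. The pseudocount understates changes of low genes. Depth was estimated from genes with 1 transcript of at least 500 bases, as the depth and length offset (202 bases in each library) that brought most low values within 0.03 of whole fragments, 78.0% to 80.1% of them. Ratios of estimated fragments carry exact 95% Clopper-Pearson intervals. The scripts were tested on simulated data. All 10 members are named, with list genes past 2-fold or highest in mean FPKM. Members and lists were chosen with earlier results of these data known. Alternatives were other pseudocounts (0.1 and 5), scalings, filters and a 1.5-fold threshold. Python 3.11.15, numpy 2.4.6, pandas 2.3.3, scipy 1.17.1 and matplotlib 3.10.9 were used.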

Additional observations from a re-analysis of the deposited data

Results flagged for a closer look

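For several genes the log2 ratio of knockdown over control had opposite signs in the cell lines. With a single library in every group, these differences were not tested. Of the 10 members, MUC1 had 0.19 (HT29) and -0.54 (LIM1215), which differ by -0.73. Its HT29 interval, 92.6% to 150% of control, did not exclude equality. MUC2 had -0.03 and 0.41 (0.43), MUC5B -0.01 and 0.65 (0.66) and SPDEF 0.04 and -0.28 (-0.32). All 3 were under an FPKM of 0.1 in both HT29 libraries. Their HT29 sign rests on fewer than 7 estimated fragments a library, an estimate that may be too low for MUC2. Of the other genes named here, MUC20 had -0.02 and 0.73, a difference of 0.76, with an HT29 interval (76.6% to 123%) that did not exclude equality. ELF3 had -0.06 and 0.27 (0.33), COL1A1, a collagen gene from the stroma marker list, had -0.13 and 0.71 (0.84), and ERN1 had 0.19 and -0.51 (-0.70). The chaperone ERP29 had 0.29 and a value just below 0 (-0.29), and its LIM1215 interval (95.4% to 104%) did not exclude equality. MUC12 (-0.20 and 0.86, differing by 1.06), ERN2 (-0.23 and 0.76, by 0.99), VIL1 (-0.06 and 0.44, by 0.50), LGALS4 (-0.18 and 0.33, by 0.51) and PHGR1 (-0.17 and 0.10, by 0.27) were under an FPKM of 1 in both HT29 libraries.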

How the results depend on the processing

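Counts of changed genes depended most on the pseudocount, the filter and the threshold. Between the controls, 1773 genes were higher in LIM1215 and 1099 lower, against 947 and 353 with a pseudocount of 5, 1107 and 563 with a mean FPKM of at least 5, and 3220 and 2409 with a 1.5-fold threshold. In the HT29 knockdown 274 were higher and 288 lower, against 570 and 558 with a pseudocount of 0.1, 87 and 94 with a pseudocount of 5, 128 and 144 with a mean FPKM of at least 5, 1165 and 1023 at 1.5-fold, and 118 and 155 among protein-coding genes. In the LIM1215 knockdown 249 were higher and 263 lower, against 476 and 508, 68 and 88, 89 and 113, 982 and 915, and 93 and 109 under the same settings, and 395 higher with no filter. Of the members above the filter, 1 was higher (TFF3) and 1 lower (AGR2) in the LIM1215 knockdown at 1.5-fold. MUC5B, with a log2 ratio of 0.65 beside 0.64 for TFF3, also reached 1.5-fold. It was not counted because its mean FPKM over the 4 libraries, 0.960, was under the filter. No member was counted at 2-fold under the alternatives run, where filtered-out SPDEF reached -1.17 with a pseudocount of 0.1. The gel-forming minus membrane difference between the controls was -2.68, against -1.40 with a pseudocount of 0.1 and -3.96 with no filter. MUC5AC alone passed the filter for the gel-forming mucins, and MUC5AC and MUC13 were listed at 0 in the HT29 control. In FPKM, MUC5B was 79.8-fold and MUC2 8.12-fold higher in the LIM1215 control, on few HT29 fragments, and MUC1 4.75-fold. The difference thus does not describe the classes. In the LIM1215 knockdown the gel-forming minus membrane difference was 0.21, against 0.50 with no filter and 0.47 with the filter applied to the LIM1215 libraries alone, a setting chosen after the data were seen. The ER chaperone median between the controls was 0.01, and -0.039 after centring, -0.17 as TPM, -0.14 with upper quartile scaling and -0.16 with a common sum of nuclear protein-coding genes. These scalings moved the median of all genes between the controls by -0.16 to -0.05. In the HT29 knockdown the chaperone median was -0.92, against -0.996 as TPM and -1.03 with the common coding sum, and in the LIM1215 knockdown -0.90, against -0.82 with a pseudocount of 5. The cause of these shifts was not tested. In LIM1215 the log2 ratio of AGR2 lay between -0.74 and -0.70, that of MUC1 between -0.57 and -0.43, that of MUC13 between 0.31 and 0.35, that of TFF3 between 0.60 and 0.65 and that of MUC5B between 0.27 and 0.95 over 6 alternatives, with no change of sign. The depth limits SPDEF, TFF1 and, in HT29, all members but MUC1. No paired analysis was run. The labels give no replicate numbers that pair libraries, and each group had 1 library. A fit of siRNA with cell line as a term, which would take the lines as replicates and leave 1 residual degree of freedom, was not run.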
